A study of Mus musculus with 6 samples.

Results

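The expression of 43 genes of the peroxisome, 30 for enzymes and a fatty acid transporter and 13 for peroxins, was followed in the ischemic lobe of mouse liver. The members were taken by gene symbol from a count table of 54532 genes, and each of the 43 symbols occurred there once. All 6 libraries came from C57bl/6 mice whose liver underwent warm ischemia for 1 h, followed by 12 h of reperfusion, that is, an interruption of the blood supply to some lobes and its return. The IRF8-cKO mice were deficient in interferon regulatory factor 8 (IRF8) in hepatocytes and gave the libraries IRF8-cKO-106, IRF8-cKO-88 and IRF8-cKO-71. Wild type mice gave WT-77, WT-44 and WT-14. Values of single libraries are given below by rising library number within a group. The Cre driver, the age and sex of the mice and whether each library is a separate animal are not stated in the labels, so p-values here refer to variation among libraries, which may be technical. No uninjured liver was measured, and all values are levels in injured tissue. In whole tissue, fewer cells of a type and less RNA per cell cannot be told apart.

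Peroxisomes are organelles bounded by a single membrane and are abundant in hepatocytes. They shorten very long-chain and branched fatty acids and bile acid precursors by beta-oxidation, and remove a carbon from phytanic acid by alpha-oxidation. They also start ether lipid synthesis, and oxidise urate, glycolate and amines with release of hydrogen peroxide. Peroxins build the organelle: some place membrane proteins, others import folded matrix proteins, and the Pex11 proteins elongate and divide it. In rodent liver the fatty acid receptor PPAR-alpha raises many of these genes, and Ehhadh is a classic target.

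Ehhadh and Lonp2 were the members that passed as higher in IRF8-cKO on all 6 libraries in edgeR, calls that depended on libraries and settings, as given below. Their promoters are given first, and whether these bear on the levels was not tested. Of the 43 members, 37 matched the RefSeq promoter table (build GRCm38.p6), with 45 start sites between them. The sequences are the 250 bases before the start, read 5′ to 3′ on the gene's strand, and capitals mark GC boxes (GGGCGG) and the CCAAT box on either strand. The Ehhadh window lies at chr16:21787835-21788084 on the minus strand, and the Lonp2 window at chr8:86623793-86624042 on the plus strand.
Ehhadh: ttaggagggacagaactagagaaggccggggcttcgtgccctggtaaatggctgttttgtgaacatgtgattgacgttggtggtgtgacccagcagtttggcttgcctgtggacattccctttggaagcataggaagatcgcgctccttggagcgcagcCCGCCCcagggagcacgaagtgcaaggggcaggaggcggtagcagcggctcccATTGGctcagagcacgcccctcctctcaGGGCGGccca
Lonp2: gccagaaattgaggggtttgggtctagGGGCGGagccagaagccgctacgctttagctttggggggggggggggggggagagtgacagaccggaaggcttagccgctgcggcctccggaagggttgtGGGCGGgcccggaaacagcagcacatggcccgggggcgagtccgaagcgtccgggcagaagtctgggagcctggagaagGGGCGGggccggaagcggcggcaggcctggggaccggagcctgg
The Ehhadh window held 2 GC boxes and 1 CCAAT box, and the Lonp2 window held 3 GC boxes. GGGCGG occurred in 28 of the 45 member windows (62.2%), against 32.7% of all 32851 windows in the table, and CCAAT in 33.3%, against 33.8%. A direct repeat as bound by PPAR-alpha, AGGNCA followed after 1 base by AGGNCA, occurred in 0 of the 45 member windows and in 0.338% of all windows. At so low a share 45 windows are too few to show a lack of the repeat. Bases farther from the start than 250 were not searched, so the 0 does not speak to sites there. Both strands were searched, and neighbouring motifs were allowed to overlap. A motif match describes letters in this window, not binding.

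The gene counts of the libraries summed to between 14758237 and 16805830 reads. Irf8 was lower in each IRF8-cKO library, at 4.17 to 6.72 CPM in IRF8-cKO and 9.32 to 10.3 CPM in WT, but did not pass (log2 fold change -0.81, SE 0.33, edgeR adjusted p = 0.174). CPM here is a read count relative to the library total, scaled for composition (TMM). The share of reads from mitochondrially encoded genes was 5.99% to 7.14% in IRF8-cKO and 7.19% to 20.2% in WT. Of 11 neutrophil markers tested, 10 had negative log2 fold changes and 5 passed as lower (S100a8, S100a9, Retnlg, Ltf and Ngp). Among all 13134 genes tested, 0.937% passed as lower. The full neutrophil list held 14 genes, among them Ly6g, Camp and Stfa2l1, whose counts were too low to test. Its summed level without Lcn2, which injured hepatocytes also make, was 26.5 to 65.6 CPM in IRF8-cKO and 205 to 271 CPM in WT. Hepatocyte markers were abundant in every library, with a median log2 fold change of -0.32 over 19 genes. Of these 1 passed, as higher (0.449% of all genes did so), and 18 did not pass. Whether these differences have a part in the values below was not tested.

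Of the 43 members, 2 rose in IRF8-cKO, 0 fell and 41 did not pass at an adjusted p under 0.05, while 1.39% of all 13134 genes tested passed (0.449% higher, 0.937% lower). All 43 members met the filter on low counts. At an unadjusted p under 0.05 there were 14 members, 12 higher and 2 lower in IRF8-cKO, a share of 32.6% beside 24.1% of all genes. For 10 members the groups shared no range of CPM, 8 higher and 2 lower, a share of 23.3% that lies below the 28.9% of all genes. The median log2 fold change of the members was 0.34, against 0.03 for all genes, and 31 of 43 were positive (72.1%, against 51.5% of all genes). The test was edgeR's quasi-likelihood test, its p-values adjusted by Benjamini-Hochberg across the 13134 genes. How many members passed depended on the libraries and the tool, as it did for all genes. Without WT-14, WT-44, WT-77 or IRF8-cKO-106, 0 members passed, and edgeR called 1.02%, 0.00733%, 0% and 0.148% of all genes in these fits. At an unadjusted p under 0.05 the same fits had, in that order, 13, 9, 9 and 15 of the 43 members. Over all genes tested the numbers were 3249 of 13614, 1984 of 13645, 1988 of 13554 and 2522 of 13492. Without IRF8-cKO-88, 6 members passed (14%, against 8.83% of all genes). DESeq2 on all 6 libraries called 9, 7 higher and 2 lower (20.9%, against 10.8% of all genes). With any library left out, the log2 fold change lay between 1.81 and 2.35 for Ehhadh and between 1.49 and 2.04 for Lonp2.

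**Figure D1:**
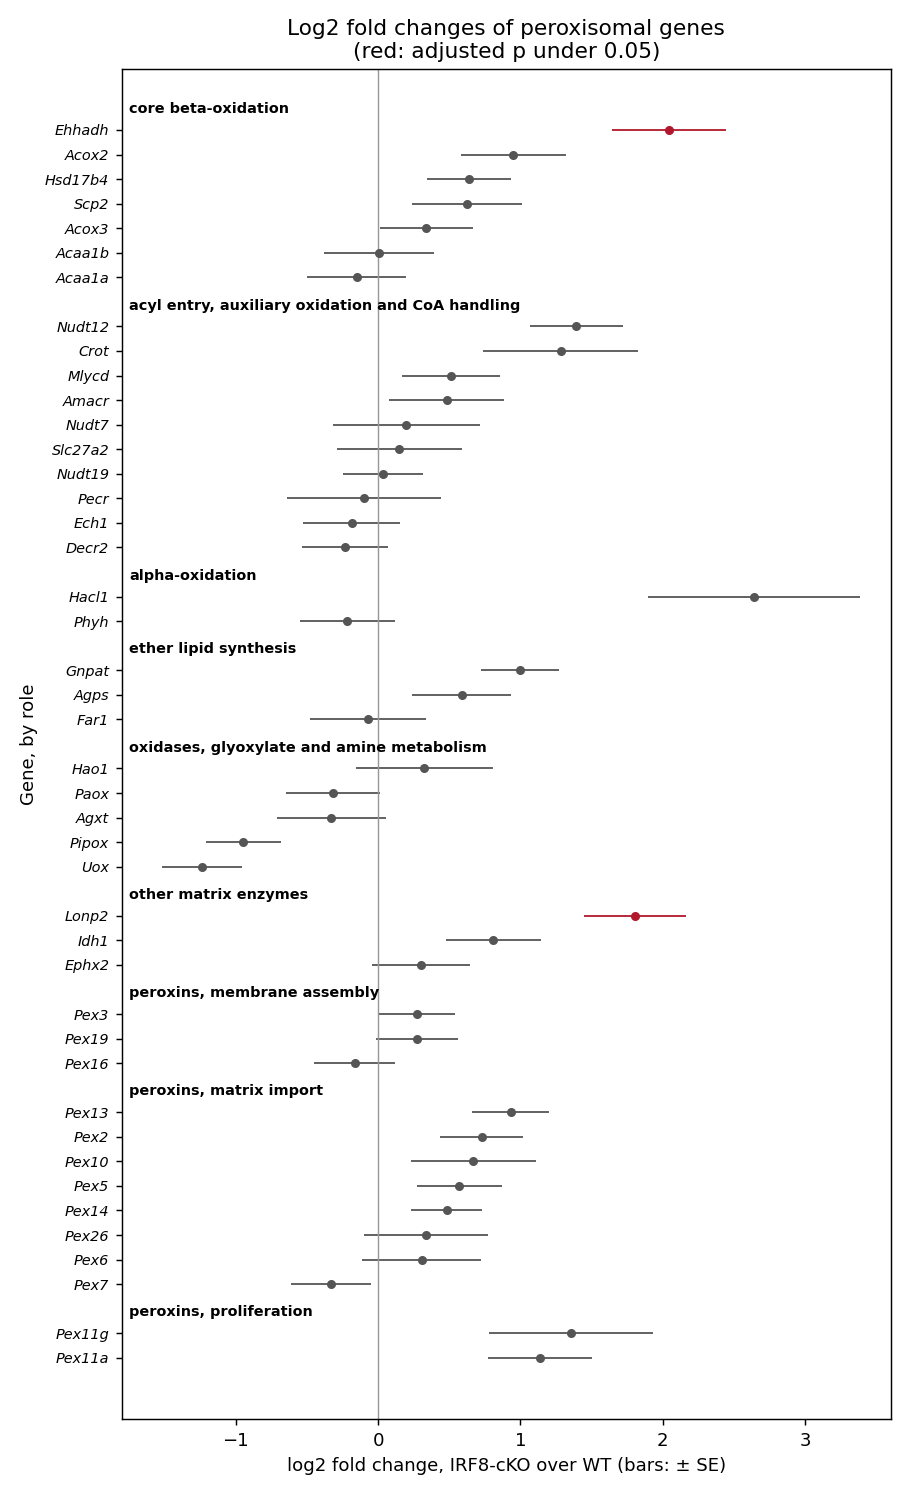
Log2 fold change of each of the 43 members, IRF8-cKO over WT, with bars of 1 SE either side, grouped by role; red points passed at an adjusted p under 0.05. Ehhadh and Lonp2 are the 2 red points, and 31 of 43 points lie right of 0.

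Taken as a share of all reads that were not mitochondrially encoded, the 43 members made up 1.39% ± 0.0289 in IRF8-cKO and 1.00% ± 0.0928 in WT (mean ± SD, n = 3 each). The lowest IRF8-cKO library stood at 1.37% and the highest WT library at 1.09%, so the groups did not overlap on this scale. After TMM scaling they did: the summed level of the members was 13820 CPM in IRF8-cKO-71, 12836 CPM in IRF8-cKO-88 and 9790.0 CPM in IRF8-cKO-106, and 7818 to 10357 CPM in WT. Much of the gap in shares came from the members with most reads in IRF8-cKO, Ehhadh and Scp2. The other 41 members together took 0.909% ± 0.0517 in IRF8-cKO and 0.785% ± 0.0782 in WT. Ehhadh alone gave 6.78%, 17.2% and 19.9% of the members' reads in the IRF8-cKO libraries, against 3.25% to 5.26% in WT.

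Per gene length, levels spanned from 0.975 TPM for Far1 to 1506 TPM for Phyh (means of 6 libraries), with a median of 64.9 TPM. Transcripts over 100 TPM came from 16 members and under 10 TPM from 10. The enzymes and the transporter had a median of 95.5 TPM and the peroxins 22.7 TPM. After Phyh, the highest levels were those of Scp2 (1287 TPM), Acaa1b (919 TPM) and Ehhadh (884 TPM).

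The core enzymes of beta-oxidation included Ehhadh, the larger of the 2 called rises among the members. Ehhadh (ENSMUSG00000022853, chromosome 16, 21761287 to 21787807, minus strand, mm10) encodes the L-bifunctional protein, which carries out the hydration and the dehydrogenation step of the spiral. It had 938, 2208 and 1947 CPM in the IRF8-cKO libraries, against 379, 337 and 519.6 CPM in the WT libraries. Each IRF8-cKO library lay above each WT library, and IRF8-cKO-71 stood well below the other IRF8-cKO libraries. Ehhadh rose 4.12-fold (log2 fold change 2.04, SE 0.40, edgeR adjusted p = 0.0446). With a library left out its adjusted p ranged from 0.0268 without IRF8-cKO-88 to 0.204 without WT-44.

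Hsd17b4, encoding the D-bifunctional protein that serves the branched substrates, had 448, 315 and 271 CPM in IRF8-cKO and 207, 217 and 239.5 CPM in WT. The groups did not overlap, but the gene did not pass (log2 fold change 0.64, SE 0.30, edgeR adjusted p = 0.219). Acox2, the oxidase that acts on bile acid intermediates and branched acyl-CoA, had 170, 107 and 177 CPM in IRF8-cKO and 117, 69.2 and 49.0 CPM in WT. IRF8-cKO-88 was below WT-14, and the log2 fold change of 0.95 (SE 0.37) did not pass (edgeR adjusted p = 0.161). Scp2, encoding a thiolase and sterol carrier protein, had 3491, 2544 and 1391 CPM in IRF8-cKO and 1399, 1740 and 1669 CPM in WT. IRF8-cKO-106 was the lowest of all 6 libraries for Scp2 (log2 fold change 0.63, SE 0.39, edgeR adjusted p = 0.335). Acox3, the pristanoyl-CoA oxidase, was at 0.34 (SE 0.33).

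The 3-ketoacyl-CoA thiolases, which cut the shortened chain, showed no shift that passed. Acaa1a and Acaa1b are near-identical copies whose reads may have been shared between them, so each value is uncertain. Acaa1b had 412, 913 and 1064 CPM in IRF8-cKO and 660, 824 and 893 CPM in WT, and the IRF8-cKO libraries lay on either side of the WT range. Its log2 fold change was 0.01 (SE 0.38), and that of Acaa1a was -0.15 (SE 0.35). Summed over both copies, the level was 687, 1099.9 and 1207 CPM in IRF8-cKO and 812, 1065 and 1170.4 CPM in WT.

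**Figure D2:**
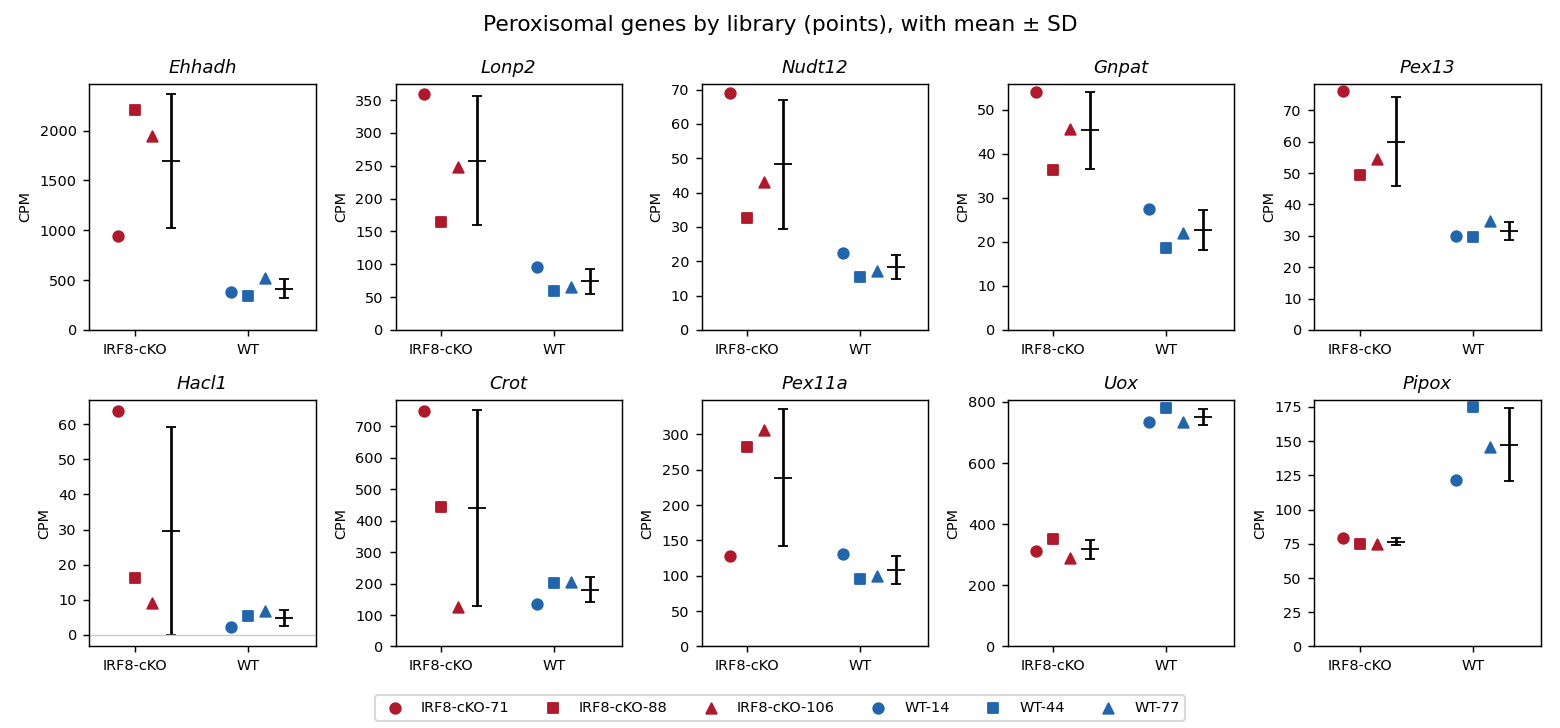
CPM of 10 members in each library (points), with the mean ± SD of 3 libraries beside each group. Ehhadh, Lonp2, Nudt12, Gnpat, Pex13 and Hacl1 lie higher in all IRF8-cKO libraries than in any WT library, Uox and Pipox lie lower, and Crot and Pex11a overlap between the groups.

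Of the 10 genes for acyl entry, auxiliary oxidation and CoA handling, edgeR called 0, with 2 at an unadjusted p under 0.05 (24.1% of all genes) and 1 called by DESeq2 (10.8% of all genes). Nudt12, a hydrolase of NADH and related nucleotides, came nearest: it had 69.0, 32.6 and 42.996 CPM in IRF8-cKO and 22.3, 15.5 and 17.3 CPM in WT, without overlap (log2 fold change 1.39, SE 0.33, edgeR adjusted p = 0.0622). Crot, the octanoyltransferase that hands shortened chains to carnitine for export, had 749, 445 and 125 CPM in IRF8-cKO and 135, 201 and 205 CPM in WT. Its IRF8-cKO libraries ran from the highest to the lowest of the 6, and the log2 fold change of 1.28 (SE 0.55, edgeR adjusted p = 0.193) was 0.67 without IRF8-cKO-71 and 1.74 without IRF8-cKO-106. Slc27a2, the very long-chain acyl-CoA synthetase and transporter, had 1464, 1199 and 560.3 CPM in IRF8-cKO and 543, 1239 and 1124 CPM in WT, overlapping between the groups (log2 fold change 0.15, SE 0.44). The remaining 7 genes had log2 fold changes between -0.23 for Decr2, the dienoyl-CoA reductase, and 0.51 for Mlycd, malonyl-CoA decarboxylase. Among them, Nudt7, a CoA diphosphatase, had 198, 229 and 43.4 CPM in IRF8-cKO and 113, 134 and 163 CPM in WT. Pecr, the trans-2-enoyl-CoA reductase, had 87.1, 19.9 and 25.9 CPM in IRF8-cKO and 62.6, 49.9 and 29.8 CPM in WT. In both genes the IRF8-cKO libraries spanned the whole WT range, and Pecr moved to -1.04 without IRF8-cKO-71 from -0.10 on all libraries.

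The alpha-oxidation pair differed from each other. Hacl1, the lyase that completes the removal of a carbon, had 63.7, 16.1 and 8.99 CPM in IRF8-cKO and 2.21, 5.35 and 6.71 CPM in WT. The groups did not overlap, and IRF8-cKO-71 was far above the rest. The log2 fold change of 2.64 (SE 0.74), the largest of the 43, did not pass (edgeR adjusted p = 0.0940) and was 1.41 without IRF8-cKO-71. The Hacl1 locus overlaps that of Btd on the other strand, which held 353% as many reads as Hacl1. Phyh, the phytanoyl-CoA hydroxylase that acts before it, had 1512, 1301 and 919 CPM in IRF8-cKO and 1156, 1761 and 1417 CPM in WT, with overlap (log2 fold change -0.22, SE 0.34).

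Ether lipid synthesis was represented by Gnpat and Agps, which act in successive steps leading to the ether bond, and Far1, which supplies the fatty alcohol. Gnpat had 53.9, 36.3 and 45.7 CPM in IRF8-cKO and 27.5, 18.6 and 21.9 CPM in WT, without overlap (log2 fold change 1.00, SE 0.28, edgeR adjusted p = 0.0871). Agps had 18.9, 29.2 and 34.3 CPM in IRF8-cKO and 26.6, 15.8 and 12.5 CPM in WT, with overlap (log2 fold change 0.59, SE 0.35). Far1, at 2.71 to 4.38 CPM in IRF8-cKO and 2.88 to 4.85 CPM in WT, stood at -0.07 (SE 0.41).

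For urate oxidase and the pipecolate oxidase, all IRF8-cKO values were under all WT values, and neither gene passed. Uox (ENSMUSG00000028186, chromosome 3, 146570426 to 146632305, plus strand, mm10) encodes urate oxidase, which forms the crystalline core of rodent liver peroxisomes. It had 312, 351 and 289.6 CPM in IRF8-cKO and 736, 781 and 735 CPM in WT. The spread within each group was small beside the gap, but the gene did not pass over all genes (log2 fold change -1.24, SE 0.28, edgeR adjusted p = 0.0577), and it passed without IRF8-cKO-88 and in DESeq2. Pipox, which oxidises pipecolate and sarcosine, had 79.3, 75.1 and 74.9 CPM in IRF8-cKO and 121, 175 and 146 CPM in WT (log2 fold change -0.95, SE 0.26, edgeR adjusted p = 0.0878). Here too each IRF8-cKO library was under each WT library. Hao1, the glycolate oxidase, had 222, 49.0 and 84.1 CPM in IRF8-cKO and 105, 90.5 and 88.1 CPM in WT. The IRF8-cKO libraries of Hao1 lay on both sides of WT, and its log2 fold change of 0.33 (SE 0.48) was -0.49 without IRF8-cKO-71. Agxt, the alanine-glyoxylate aminotransferase, was at -0.33 (SE 0.38). Paox, a polyamine oxidase, was at -0.32 (SE 0.33), and its locus overlaps the more abundant Echs1 on the other strand.

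Among the other matrix enzymes, Lonp2 rose. Lonp2 (ENSMUSG00000047866, chromosome 8, 86624043 to 86723873, plus strand, mm10) encodes the Lon protease of the peroxisomal matrix, which degrades damaged enzymes. It had 359.8, 164 and 248 CPM in IRF8-cKO and 95.7, 60.0 and 65.7 CPM in WT, with no overlap, and IRF8-cKO-71 was the highest where Ehhadh had its lowest IRF8-cKO value. Lonp2 rose 3.49-fold (log2 fold change 1.80, SE 0.36, edgeR adjusted p = 0.0472). With a library left out, the adjusted p ranged from 0.00928 without IRF8-cKO-88 to 0.208 without WT-77. The call was also lost without IRF8-cKO-71 (adjusted p = 0.0518), in limma-voom (adjusted p = 0.0511) and without robust shrinkage (adjusted p = 0.0503). Idh1, the NADP-dependent isocitrate dehydrogenase of cytosol and peroxisomes, had 369.6, 175 and 301 CPM in IRF8-cKO and 185, 152 and 145 CPM in WT. IRF8-cKO-88 lay within the WT range of Idh1 (log2 fold change 0.81, SE 0.33, edgeR adjusted p = 0.178). Ephx2, the soluble epoxide hydrolase, had 848, 842 and 589.5 CPM in IRF8-cKO and 411, 812 and 626 CPM in WT (log2 fold change 0.30, SE 0.34).

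Of the 13 peroxins edgeR called 0, with 4 at an unadjusted p under 0.05 (30.8%, against 24.1% of all genes) and 2 called by DESeq2 (which called 10.8% of all genes), both near the background. Of them 11 had positive log2 fold changes, and their median was 0.48. The 3 that insert membrane proteins showed small differences. Pex19, the cytosolic carrier of membrane proteins, had 104, 181 and 154 CPM in IRF8-cKO and 129, 113 and 122 CPM in WT (log2 fold change 0.27, SE 0.29). Pex3, its docking partner, was at 0.27 (SE 0.27), and Pex16 at -0.16 (SE 0.28). In all 3 genes the groups overlapped.

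Of the 8 import peroxins 7 were positive (87.5%, against 51.5% of all genes). The groups separated in Pex13 and Pex14 alone, a share of 25% that lies below the 28.9% of all genes. Pex13, part of the docking site for import receptors, had 76.2, 49.3 and 54.4 CPM in IRF8-cKO and 30.0, 29.6 and 34.7 CPM in WT (log2 fold change 0.93, SE 0.27, edgeR adjusted p = 0.0906). Pex14, its partner in docking, had 36.6, 29.2 and 28.9 CPM in IRF8-cKO and 19.7, 23.4 and 24.7 CPM in WT (log2 fold change 0.48, SE 0.25). Pex2, of the ubiquitin ligase ring that recycles the receptor, had 68.2, 64.4 and 39.2 CPM in IRF8-cKO and 40.2, 33.3 and 30.2 CPM in WT, where IRF8-cKO-106 was just under WT-14 (log2 fold change 0.73, SE 0.29, edgeR adjusted p = 0.170). Pex5, the receptor for most matrix enzymes, was at 0.57 (SE 0.30), and Pex7, the receptor for the few with an N-terminal signal, at -0.33 (SE 0.28). Pex10, another ring protein, was at 0.67 (SE 0.44), and Pex6, the recycling ATPase, and its anchor Pex26 were at 0.31 (SE 0.42) and 0.34 (SE 0.43).

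The Pex11 pair had the largest log2 fold changes of the peroxins. Pex11a, the isoform that PPAR-alpha ligands induce in rodents, had 127, 283 and 307 CPM in IRF8-cKO and 131, 95.4 and 99.1 CPM in WT. IRF8-cKO-71 lay just under WT-14, and the log2 fold change of 1.14 (SE 0.36) did not pass (edgeR adjusted p = 0.110), though it did without IRF8-cKO-71. Pex11g, another division factor, had 21.6, 6.35 and 4.17 CPM in IRF8-cKO and 4.84, 4.32 and 3.39 CPM in WT. That gene rested on IRF8-cKO-71: the log2 fold change of 1.35 (SE 0.57, edgeR adjusted p = 0.190) was 0.34 without it.

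**Figure D3:**
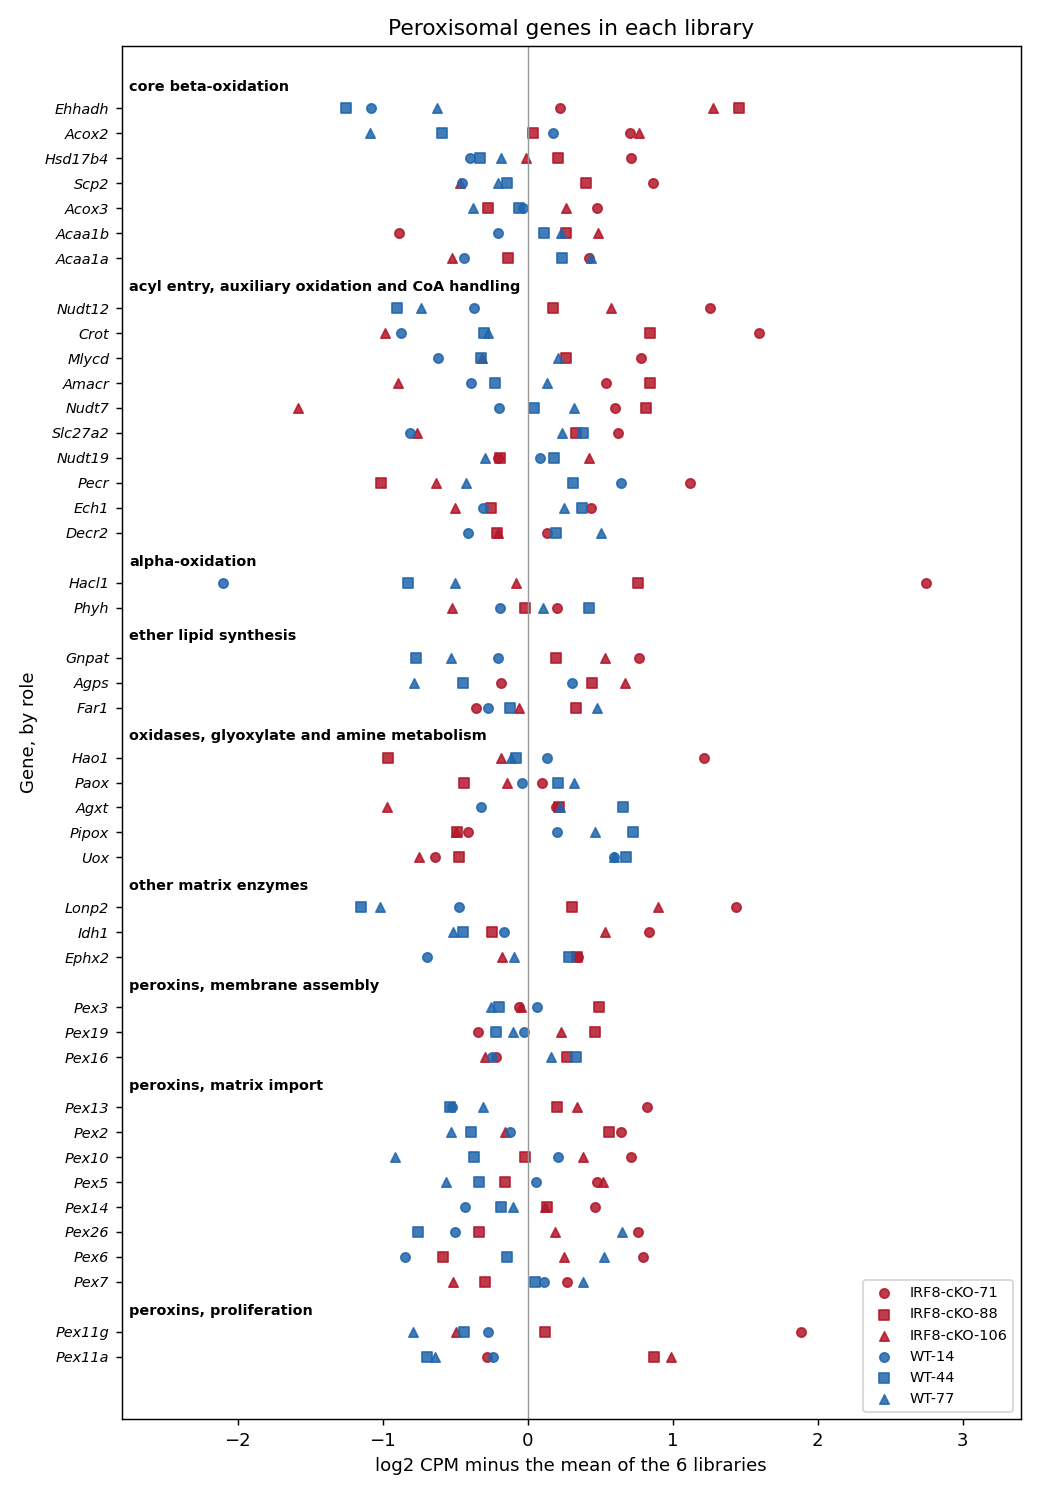
Log2 CPM of each member minus its mean over the 6 libraries, grouped by role, IRF8-cKO in red and WT in blue, with a symbol for each library. IRF8-cKO-71 (red circles) lies farthest right for Hacl1, Pex11g and Crot but is the lowest IRF8-cKO library for Ehhadh, Acaa1b and Pex11a.

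Values of the members spread more widely among the IRF8-cKO libraries than among the WT libraries. The highest over the lowest library had a median ratio of 1.81 in IRF8-cKO and 1.48 in WT, and it exceeded 2 for 19 members in IRF8-cKO and 8 in WT. IRF8-cKO-71 was the highest IRF8-cKO library for 28 of 43 members, IRF8-cKO-88 for 9 and IRF8-cKO-106 for 6. It was the lowest for 8, namely Ehhadh, Acaa1b, Nudt19, Agps, Far1, Pex3, Pex19 and Pex11a. In IRF8-cKO-71, 27 members lay above all WT libraries and 5 below. The numbers were 21 above and 6 below in IRF8-cKO-88, and 18 above and 15 below in IRF8-cKO-106. The spreads, ranks and counts above were taken over the members alone, and whether all genes show the same was not tested. The mean log2 CPM of the members relative to the 6-library mean was 0.50, 0.12 and -0.05 in the IRF8-cKO libraries, and -0.27, -0.16 and -0.13 in the WT libraries. Hepatocyte markers on the same scale were at 0.17, -0.04 and -0.51 in the IRF8-cKO libraries and -0.16, 0.26 and 0.27 in the WT libraries. The lowest library of each group was thus the same in both lists, IRF8-cKO-106 and WT-14, and whether this bears on the members' values was not tested.

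Other genes of the peroxisome, a list of 42, had a median log2 fold change of 0.41 over the 39 tested. Of these 2 rose, 0 fell and 37 did not pass, while 1.39% of all genes passed. Positive values were found for 30 (76.9%, against 51.5% of all genes). At an unadjusted p under 0.05 there were 15, 14 higher and 1 lower (38.5%, against 24.1% of all genes). The groups did not overlap for 15, 13 higher and 2 lower (38.5%, against 28.9%). Crat, carnitine acetyltransferase, had 105.5, 52.0 and 84.9 CPM in IRF8-cKO and 14.9, 11.3 and 23.0 CPM in WT, a rise of 2.30 on the log2 scale (SE 0.37, edgeR adjusted p = 0.0339). Ide, a protease with a peroxisomal signal that is mostly cytosolic, had 121, 78.2 and 94.2 CPM in IRF8-cKO and 40.3, 33.2 and 29.2 CPM in WT (log2 fold change 1.51, SE 0.28, edgeR adjusted p = 0.0446). Cat, the catalase that removes hydrogen peroxide, was at 0.10 (SE 0.35). Of this list 0 passed without WT-14, WT-44, WT-77 or IRF8-cKO-106, fits in which 1.02% of all genes or fewer passed, while leaving out IRF8-cKO-88 gave 6 calls, with 8.83% of all genes called.

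PPAR-alpha and its other known targets, a list of 30, had a median of 0.47 with 21 positive, but the 2 that passed were lower. At an unadjusted p under 0.05 there were 14 of the 30, 11 higher and 3 lower (46.7%, against 24.1% of all genes). The groups did not overlap for 15, 12 higher and 3 lower (50%, against 28.9%). Ppara itself had 38.0, 99.4 and 87.0 CPM in IRF8-cKO and 79.7, 87.8 and 59.3 CPM in WT (log2 fold change -0.01, SE 0.37). IRF8-cKO-71, lowest for Ppara, was also the lowest IRF8-cKO library for Ehhadh and Pex11a. Fabp1, the liver fatty acid binding protein, had 761, 679.5 and 671 CPM in IRF8-cKO and 2189.5, 3770.4 and 2442 CPM in WT (log2 fold change -1.99, SE 0.35, edgeR adjusted p = 0.0408). Angptl4, an inhibitor of lipoprotein lipase, fell by 1.95 on the log2 scale (SE 0.37, edgeR adjusted p = 0.0446). Of the 30, 0 passed without WT-44, WT-77 or IRF8-cKO-106, where 0.00733%, 0% and 0.148% of all genes passed. There was 1 call without WT-14 or IRF8-cKO-71 (1.02% and 1.05% of all genes), and 6 when IRF8-cKO-88 was left out (8.83%).

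**Figure D4:**
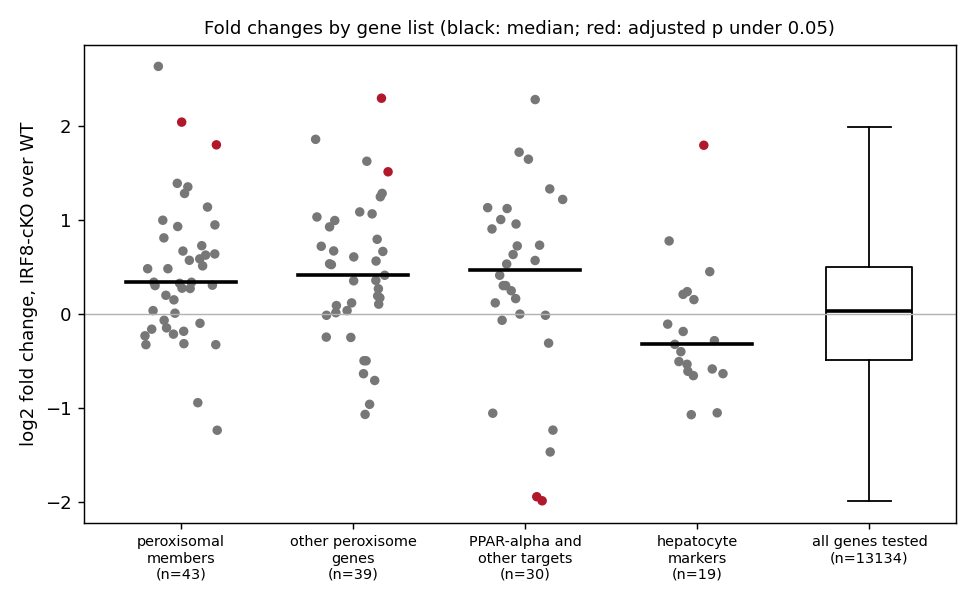
Log2 fold changes, IRF8-cKO over WT, of single genes (points, red with an adjusted p under 0.05) in 4 lists with their medians (black lines), beside a box of the quartiles of all genes tested. The medians are 0.34 for the members, 0.41 for other peroxisome genes, 0.47 for the PPAR-alpha list, -0.32 for hepatocyte markers and 0.03 for all genes.

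Some members share their locus with another gene, and whether reads on opposite strands were counted apart is not given in the sources consulted. For 6 members the partner held over 10% as many reads as the member. These partners did not pass, with log2 fold changes of 0.57 for Btd (Hacl1), 0.29 for 2810004N23Rik (Gnpat), 0.71 for Pus10 (Pex13), 0.21 for Myd88 (Acaa1a), -0.07 for Echs1 (Paox) and -0.07 for Adat2 (Pex3).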

How the data were processed

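RNA of the injured liver lobe was sequenced in 3 libraries per group, as titled. The labels' protocols name Trizol and an NEBNext Ultra kit. HISAT2 2.0.5 with featureCounts 1.5.0-p3 and build mm10 are listed in the submitters' processing notes. The authors deposited raw counts per gene with gene lengths. How strand and multiply mapped reads were treated is not given in the sources used here. Libraries within a group differed by more than counting noise, with a chi-square of at least 69.9 times its degrees of freedom.

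Of 24095 genes with a read, filterByExpr (minimum count 10, minimum total 15) kept 13134. They were fitted in R 4.3.3 with edgeR 4.0.16 (TMM scaling, robust quasi-likelihood, a term for group, two-sided), and p-values were adjusted by Benjamini-Hochberg with a threshold of 0.05. A positive log2 fold change is higher in IRF8-cKO. Its SE was taken as its size over the square root of F. TPM used the deposited lengths. On data simulated for this comparison over 13134 genes, 59% of 4-fold and 6% of 2-fold changes were recovered.

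Alternatives were other scalings and filters, DESeq2 1.42.0, limma-voom (limma 3.58.1), a fit without robust shrinkage and each library left out. The members and lists were chosen with earlier results of these data known, and no list was tested as a set. The rule for naming genes took Irf8, each gene that passed, the 2 lowest p and the highest TPM in each role of the members, the lowest p in each other list, and Ppara and Cat; some genes that the rule names are not reported here. Other members are named to account for all 43. Eci3, Hao2 and Dao did not meet the filter.

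Counts of other cell type markers by edgeR were as follows. Over all genes 1.39% passed, 24.1% had an unadjusted p under 0.05 and DESeq2 called 10.8%. Of 12 Kupffer cell and macrophage genes 0 passed, 6 had an unadjusted p under 0.05 and DESeq2 called 3, with a median log2 fold change of 0.84 and the lowest p in Cd5l. Of 10 endothelial genes the numbers were 0, 4 and 2, the median 0.05 and the lowest p in Tek. Of 7 cholangiocyte genes tested they were 0, 7 and 5, the median -2.44 and the lowest p in Krt19. Of 9 stellate cell genes they were 0, 2 and 2 and the median 0.07. A single lymphocyte gene, Cd8a, could be tested and did not pass (log2 fold change 1.43, SE 0.89, edgeR adjusted p = 0.342).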

Additional observations from a re-analysis of the deposited data

How the results depend on the processing

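No paired analysis was possible because no replicate number occurs in both groups. Over 16 alternatives, 30 of 43 members kept the sign of their log2 fold change, 25 of the 31 positive and 5 of the 12 negative, Uox and Pipox among them. The members' median lay between 0.31 and 0.54 with a library left out, and was 0.55 with library totals only, a setting that moved the median of all genes to 0.25 from 0.03. Relative to all genes the members' median was then 0.30, against 0.31 with TMM.

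Counts of called members, of other peroxisome genes, of the PPAR-alpha list and of all genes depended on the setting more than their medians did. They were 10, 10, 12 and 1723 with no low-count filter, which tested 24095 genes, and 9, 9, 8 and 1423 in DESeq2, which called 10.8% of 13134. The other fits named below on all 6 libraries also tested 13134 genes, or 13132 with mitochondrial genes removed. Fits with a library left out tested 13492 to 13652. With library totals only, 1 of the other peroxisome genes, 1 of the PPAR-alpha list and 82 genes in all were called, against 2, 2 and 182 in the edgeR fit. limma-voom called 1 member and 111 genes, and the fit without robust shrinkage 1 member and 153 genes. A correction for gene length, chosen after seeing the data, called 0, 1, 0 and 77, where Ehhadh had an adjusted p of 0.0595. With a library left out, the counts ran from 0 to 6 for members, 0 to 6 for other peroxisome genes, 0 to 6 for the PPAR-alpha list and 0 to 1205 for all genes. Removal of mitochondrial genes, also chosen after seeing the data, left 2 members called and 180 genes in all.

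Signs that turned belong to genes that did not pass. With library totals only, values were 0.059 for Acaa1a, 0.00338 for Decr2, 0.037 for Pecr, 0.029 for Ech1, 0.000888 for Phyh, 0.16 for Far1, 0.071 for Pex16 and 0.25 for Ppara. Acaa1b was at -0.014 with upper-quartile scaling and -0.10 in limma-voom, where Nudt7 was at -0.10. Ppara was at 0.0098 with no low-count filter. With the length correction Pecr was at 0.062 and Pex16 at 0.042. With a library left out the ranges were -0.43 to 0.058 for Acaa1a, -0.24 to 0.33 for Acaa1b, -0.50 to 0.0085 for Ech1, -0.26 to 0.19 for Far1, -0.49 to 0.70 for Hao1, -0.19 to 0.15 for Nudt19, -0.18 to 0.66 for Nudt7, -1.04 to 0.25 for Pecr, -0.048 to 0.70 for Pex6, -0.14 to 0.47 for Slc27a2, -0.27 to 0.31 for Ppara and -0.13 to 0.37 for Cat. The cause of these turns was not tested. In the simulation, at this depth and spread and with few genes changed, most 2-fold changes did not pass.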
